A study of Mus musculus with 6 samples.

Results

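Plasma apolipoproteins are the proteins that coat and steer the lipoprotein particles of the blood, and the 10 genes described here encode apolipoproteins made by the liver: *Apoe*, *Apoa1*, *Apoa2*, *Apoa4*, *Apoa5*, *Apob*, *Apoc1*, *Apoc2*, *Apoc3* and *Apoh*. They were chosen by name, with earlier results of these data known. They are 10 of the 54115 genes for which reads were summed. All 10 are among the 12524 genes that passed the filter on low counts, so none of them was lost to the filter. RNA-seq was performed on the livers of 3 wild-type (WT) and 3 *Sirt7* knockout (KO) male mice, all 24 months old and all fasted for 16 h. *Sirt7* encodes a nuclear NAD-dependent deacylase. The knockout is carried in all tissues, the line was backcrossed to C57BL/6J for at least 5 generations, and both genotypes came from heterozygous crosses, so the data cannot separate an effect within liver cells from one of other organs. The labels number the mice of each genotype as biological replicates 1 to 3.

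The liver secretes triglyceride in very low density lipoprotein (VLDL), which is built around 1 molecule of apoB, and releases or seeds high density lipoprotein (HDL), whose main proteins are apoA-I and apoA-II. The small exchangeable apolipoproteins move between particles and tune lipoprotein lipase, the enzyme that clears triglyceride in capillaries: apoC-II activates it, apoC-III and apoC-I restrain it or the uptake of remnants, and apoA-V, made in the liver in small amounts, promotes it. ApoE is the ligand by which remnants are taken up by receptors of the liver.

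Depth was 10608035 to 13424776 reads per WT mouse and 9994860 to 11107388 per *Sirt7* KO mouse. The hepatocyte markers were abundant in all livers (summed level of 8 genes 63550 to 75700 CPM, the reads of a gene scaled to the size and composition of its library) and none of the 8 had an unadjusted p under 0.05. The gut also makes *Apoa1*, *Apoa4* and *Apob*. Of 5 enterocyte markers, *Sis* had 0 reads in every liver, *Lct* and *Cdx2* had at most 2 and *Vil1* at most 7. *Fabp2*, the only 1 that passed the filter on low counts, was at 26.9 to 92.5 CPM in WT and 19.3 to 47.8 CPM in *Sirt7* KO mice. The summed Kupffer cell markers were 83.6, 87.8 and 213.6 CPM in WT mice and 204.4, 74.6 and 153.9 CPM in *Sirt7* KO mice, and the genotypes overlapped. In bulk liver, fewer hepatocytes and less RNA per hepatocyte cannot be told apart. *Sirt7* itself was at 49.3 ± 5.19 CPM in WT and 37.0 ± 7.34 CPM in *Sirt7* KO mice (mean ± SD, n = 3, log2 fold change -0.41, edgeR adjusted p = 0.42). With length offsets in edgeR this log2 fold change turned to 0.80, while the full-length isoform had 429, 381 and 408 reads in WT and 124, 135 and 78 reads in *Sirt7* KO mice. *Sirt7* KO replicate 1 stood apart from its group. The mean log2 level of 15 fasting target genes, relative to the mean of all livers, was 0.57 in this mouse against -1.05 and -1.38 in the other *Sirt7* KO mice and 0.33 to 1.04 in WT mice.

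Of the 10 genes, 7 lie in 2 gene clusters (coordinates of GRCm38, GENCODE M21). *Apoc2*, *Apoc1* and *Apoe* lie with *Apoc4* in 27.6 kb of chromosome 7, all on the minus strand. *Apoa1*, *Apoc3*, *Apoa4* and *Apoa5* lie in 43.3 kb of chromosome 9, from chr9:46228580-46230466 for *Apoa1* to chr9:46268633-46271919 for *Apoa5*, with *Apoc3* alone on the minus strand. *Apoa2* is at chr1:171225054-171226379 and *Apob* at chr12:7977648-8016835. *Apoh* is at chr11:108343354-108414396, which is 12.2 Mb from *Sirt7* on the same chromosome.

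The promoters of the 3 plus-strand genes of the chromosome 9 cluster are shown because *Apoa5* had the smallest p-value of the 10 genes and *Apoa1* the only log2 fold change above 0, although neither was called. Each window runs from 250 bases before to 50 after a RefSeq start site (GRCm38.p6), 5′ to 3′ on the plus strand, with *Apoa1* at chr9:46228380-46228679, *Apoa4* at chr9:46240594-46240893 and *Apoa5* at chr9:46268383-46268682. Capitals mark matches to the motifs searched.
Apoa1: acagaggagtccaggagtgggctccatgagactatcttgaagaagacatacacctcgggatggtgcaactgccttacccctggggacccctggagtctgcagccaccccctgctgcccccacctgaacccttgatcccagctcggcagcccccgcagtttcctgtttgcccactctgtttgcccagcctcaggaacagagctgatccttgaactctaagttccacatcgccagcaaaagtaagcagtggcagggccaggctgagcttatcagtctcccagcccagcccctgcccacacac
Apoa4: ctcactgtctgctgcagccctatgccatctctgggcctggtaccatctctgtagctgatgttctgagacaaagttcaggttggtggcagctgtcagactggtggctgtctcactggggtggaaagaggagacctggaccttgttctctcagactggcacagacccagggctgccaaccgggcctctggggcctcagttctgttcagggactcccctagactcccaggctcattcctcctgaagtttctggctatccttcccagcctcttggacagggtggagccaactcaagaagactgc
Apoa5: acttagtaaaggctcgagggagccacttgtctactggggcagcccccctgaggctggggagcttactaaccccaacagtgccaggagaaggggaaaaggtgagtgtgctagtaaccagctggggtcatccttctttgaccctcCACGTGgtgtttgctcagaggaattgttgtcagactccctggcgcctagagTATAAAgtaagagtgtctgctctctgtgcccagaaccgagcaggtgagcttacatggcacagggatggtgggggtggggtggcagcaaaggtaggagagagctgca
Both strands were searched for the E-box CACGTG, the nuclear receptor half-site AGGTCA, the longer CAAAGGTCA, which contains it, CAAAGTCCA, the core TGACG of cAMP response elements, and the box TATAAA. The *Apoa5* window held CACGTG at position -107 and TATAAA at position -56 from its RefSeq start, and the *Apoa1* and *Apoa4* windows held none of the 6 motifs. RefSeq has a further *Apoa5* start a little upstream, at 46268608 on chromosome 9, from which the same matches lie at -82 and -31. Over 32851 promoters of the same length, CACGTG was present in 7.15%, TATAAA in 13.6%, AGGTCA in 16.3% and TGACG in 20.8%, and the longer motifs in 0.478% (CAAAGGTCA) and 0.475% (CAAAGTCCA). RefSeq promoters were found for 8 of the 10 genes, and not for *Apoc1* and *Apoc3*. The isoform that took most *Apoa5* reads, *Apoa5-201*, starts 445 bases downstream of the start used for this window, which is that of *Apoa5-202*, whereas the leading *Apoa1* isoform starts 50 bases upstream of its RefSeq start and the *Apoa4* isoform 148 bases upstream.

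Comparing the genotypes addressed whether loss of SIRT7 went with other levels of these mRNAs in aged, fasted liver. *Apoa1* was 31.4% higher in *Sirt7* KO than in WT mice and the other 9 genes were lower, by 7.53% for *Apoc3* to 55.1% for *Apoa5*. None of the 10 was called by edgeR (adjusted p under 0.05 and fold change over 1.5), against 0.00798% of all 12524 tested genes, which is 1 gene, *Apol9b*, named here after its values were seen. With DESeq2 and length offsets, 1.87% of all genes and 1 of the 10, *Apoa5*, were called. At an unadjusted p under 0.05 by edgeR, 1 of the 10 was lower and 0 were higher, against 4.78% lower, 6.54% higher and 11.3% in either direction over all genes. The genotypes did not overlap for 5 of the 10 genes, against 16.8% of all genes. For 1 gene, *Apoa1*, all *Sirt7* KO livers were higher (8.74% of all genes) and for 4 genes, *Apoa2*, *Apoa5*, *Apoc1* and *Apoh*, all were lower (8.09% of all genes). The median log2 fold change of the 10 genes was -0.22, against -0.0061 over all tested genes. Without *Sirt7* KO replicate 1, the unadjusted p was under 0.05 for 5 of the 10 (*Apoa1*, *Apoa2*, *Apoa4*, *Apoa5* and *Apoc1*). Over all genes, 2208 of 12921 tested then passed, in place of 1418 of 12524. With each of the 6 mice left out in turn the count among the 10 was 1 to 5.

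**Figure D1:**
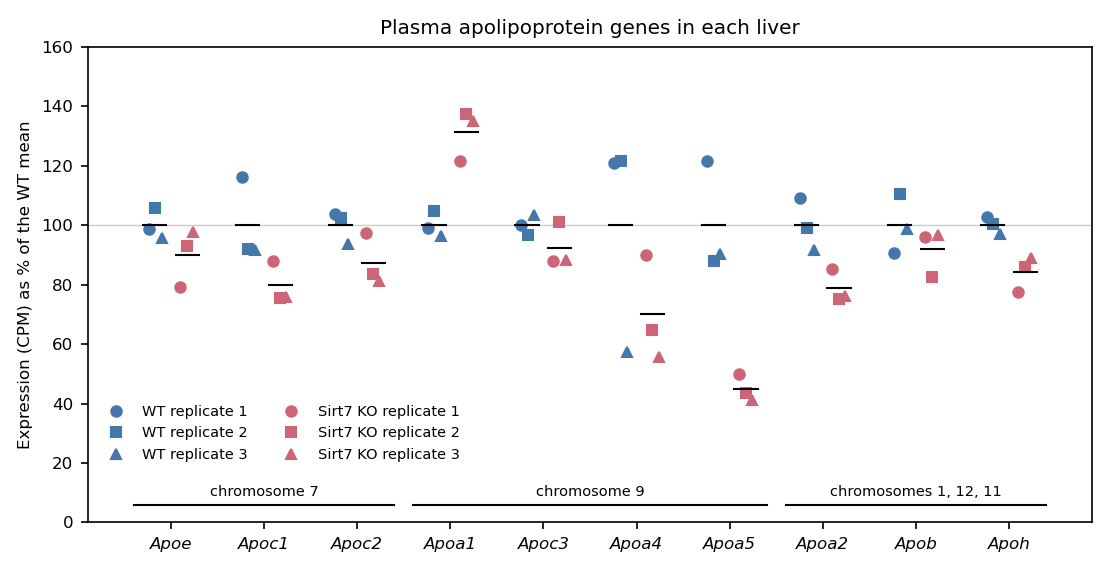
Expression of each gene in each liver, as a percent of the mean of the 3 WT mice (y axis), for the 10 genes grouped by chromosome (x axis). Blue points are WT and red points *Sirt7* KO mice, with 1 symbol per replicate number, and black lines are group means. *Apoa5* in all 3 *Sirt7* KO mice lies near 45% of the WT mean, *Apoa1* lies above the WT mice, and *Apoa4* is split by a low WT mouse.

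*Apoa5*, whose protein promotes the lipolysis of triglyceride-rich particles, had the smallest p-value of the 10 genes. Its level was 3297, 2386 and 2442 CPM in WT mice and 1354, 1176 and 1119.8 CPM in *Sirt7* KO mice. The lowest WT liver was thus well above the highest *Sirt7* KO liver, that of replicate 1. The means were 2708 ± 511 CPM in WT and 1217 ± 122 CPM in *Sirt7* KO mice (SD, n = 3), a log2 fold change of -1.15 (SE 0.19, 95% CI -1.58 to -0.73). This was the 25th smallest p-value of the 12524 genes but did not pass the threshold (edgeR adjusted p = 0.092). The difference was called under 5 of 19 alternatives: with DESeq2 with length offsets (adjusted p = 3.53e-05) and without them (adjusted p = 1.26e-07), in edgeR with no filter on low counts (adjusted p = 1.05e-05), with the replicate number as a block (adjusted p = 0.0455) and without *Sirt7* KO replicate 1 (adjusted p = 0.0242). These 5 settings also called more of all genes than the main fit, which called 1. DESeq2 called 242 of 12963 genes with length offsets and 258 of 11935 without them. EdgeR called 633 of 27881 genes with no filter, 41 of 12524 with the block and 252 of 12921 without *Sirt7* KO replicate 1. Over all 19 alternatives the log2 fold change of *Apoa5* was between -1.27 and -0.99 and the adjusted p between 1.26e-07 and 0.34.

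The reads that Salmon assigned to the main *Apoa5* isoforms are given here without scaling for depth. *Apoa5-201*, of 3 exons, had 25906, 18982 and 24105 reads in WT mice and 9479, 8433 and 8719 reads in *Sirt7* KO mice. *Apoa5-202*, of 4 exons, had 9369, 4333 and 6160.0 reads in WT and 4140.2, 1215 and 1269 reads in *Sirt7* KO mice. In the fit of the leading isoform of each gene alone, which was added after the values were seen, *Apoa5-201* had a log2 fold change of -1.13 (edgeR adjusted p = 0.055). *Apoa5* shares 18.4% of its words of 31 bases with the antisense gene *Gm47544*, and the libraries do not mark strand. *Gm47544* was assigned 1.18% to 2.4% as many reads as *Apoa5* in each liver, and adding these reads left the log2 fold change at -1.16 (edgeR adjusted p = 0.095).

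*Apoa1* encodes the main protein of HDL and the activator of lecithin-cholesterol acyltransferase (LCAT), the plasma enzyme that esterifies cholesterol on HDL. Its level was 11898, 12569 and 11564 CPM in WT and 14608, 16516 and 16237 CPM in *Sirt7* KO mice. All *Sirt7* KO livers were above all WT livers, with *Sirt7* KO replicate 1 the nearest to WT. The log2 fold change was 0.39 (SE 0.18, 95% CI -0.015 to 0.80, edgeR adjusted p = 0.46). *Apoa1* had 3.61, 5.27 and 4.74 times as many reads as *Apoa5* in WT and 10.8, 14.0 and 14.5 times as many in *Sirt7* KO mice. The difference in the log2 ratio was 1.54. This pair, which lies within 43.3 kb, was chosen after its values were seen, so the ratio is a description with no test.

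*Apoa2* encodes the second most abundant protein of HDL. It was at 15710, 14258 and 13173 CPM in WT and 12274, 10820 and 10946 CPM in *Sirt7* KO mice. The genotypes did not overlap, although the nearest mice, WT replicate 3 and *Sirt7* KO replicate 1, were close. The log2 fold change was -0.34 (SE 0.19, 95% CI -0.76 to 0.077, edgeR adjusted p = 0.54). The intervals of both *Apoa1* and *Apoa2* included 0.

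*Apoa4*, whose protein rides on chylomicrons and HDL and whose mRNA in mouse liver is known to vary widely with diet and lipid load, had the widest spread. It was at 376, 377 and 178 CPM in WT and 279, 200.5 and 172 CPM in *Sirt7* KO mice. WT replicate 3 lay among the *Sirt7* KO mice, so the genotypes overlapped (log2 fold change -0.51, SE 0.30, 95% CI -1.19 to 0.16, edgeR adjusted p = 0.57). Without WT replicate 3 it was -0.79 (edgeR adjusted p = 0.37), and it came nearest to 0, at -0.35, without WT replicate 2. *Apoa4* shares 64.5% of its words of 31 bases with the antisense *Gm10680* and with *Gm47528* on the opposite strand. *Gm10680* was assigned 6.09% to 9.55% as many reads as *Apoa4*, and adding both genes gave -0.53 (edgeR adjusted p = 0.56).

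*Apob*, the structural protein of VLDL, was at 2074, 2526 and 2261 CPM in WT and 2199, 1891 and 2213 CPM in *Sirt7* KO mice, and the genotypes overlapped (log2 fold change -0.12, SE 0.17, 95% CI -0.50 to 0.25, edgeR adjusted p = 0.83). *Apoe* was at 37593, 40221 and 36399 CPM in WT and 30143, 35360 and 37173 CPM in *Sirt7* KO mice. The lowest liver was *Sirt7* KO replicate 1 and the others overlapped (log2 fold change -0.15, SE 0.20, 95% CI -0.62 to 0.31, edgeR adjusted p = 0.83). The interval of *Apob* excluded a change by a factor of 1.5 in either direction. That of *Apoe* excluded such an increase but just included such a decrease.

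The 3 apoC genes were all lower on average, without passing the test. *Apoc1*, which restrains remnant uptake, was at 5421, 4292 and 4279 CPM in WT and 4100.2, 3526 and 3544 CPM in *Sirt7* KO mice. The genotypes did not overlap (log2 fold change -0.33, SE 0.18, 95% CI -0.73 to 0.085, edgeR adjusted p = 0.55). *Apoc3*, the inhibitor of lipoprotein lipase, was at 2395, 2312 and 2475 CPM in WT and 2110, 2417 and 2115 CPM in *Sirt7* KO mice, with *Sirt7* KO replicate 2 among the WT mice (log2 fold change -0.11, SE 0.16, 95% CI -0.47 to 0.24, edgeR adjusted p = 0.84). *Apoc2*, the activator of the same enzyme, was at 288, 285 and 260.2 CPM in WT and 270.2, 232 and 226 CPM in *Sirt7* KO mice, with *Sirt7* KO replicate 1 among the WT mice (log2 fold change -0.19, SE 0.14, 95% CI -0.51 to 0.13, edgeR adjusted p = 0.66). *Apoc2* values are uncertain in level. It shares 78.8% of its words of 31 bases with *Gm44805*, a gene model that spans *Apoc4* and *Apoc2* on the same strand and was assigned 20.1% to 42.7% as many reads. With these reads added, the log2 fold change of *Apoc2* was -0.17.

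*Apoh*, or beta-2-glycoprotein I, binds anionic phospholipids and lies outside both clusters. It was at 2220, 2168 and 2096 CPM in WT and 1679, 1857 and 1919.6 CPM in *Sirt7* KO mice. The genotypes did not overlap, and *Sirt7* KO replicate 1 was the lowest (log2 fold change -0.25, SE 0.15, 95% CI -0.59 to 0.097, edgeR adjusted p = 0.59). The sign of the log2 fold change of each of the 10 genes was the same under every alternative scaling, filter, tool and left-out mouse that was tried.

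**Figure D2:**
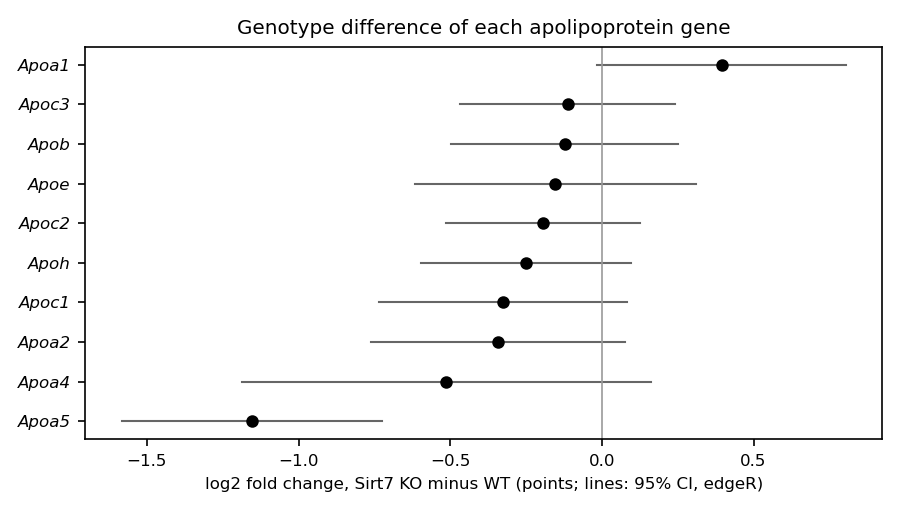
Log2 fold change of each gene, *Sirt7* KO minus WT (x axis), with its 95% confidence interval from edgeR as a line (3 mice per genotype). The interval of *Apoa5* alone does not reach 0, and *Apoa1* is the only gene with a value above 0.

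The 10 genes took 9.09%, 7.98% and 7.59% of all reads on genes in WT mice, compared with 6.81%, 7.01% and 7.19% in *Sirt7* KO mice. The genotypes did not overlap in this share, with *Sirt7* KO replicate 1 the lowest, and the difference of the means was -1.22 percentage points (8.22 ± 0.78% against 7.004 ± 0.19%, SD, n = 3). In CPM, which also corrects for library composition, they did overlap: the sum over the 10 genes was 81270, 81390 and 75130 CPM in WT and 69020, 73990 and 75670 CPM in *Sirt7* KO mice, of which replicate 3 was above WT replicate 3. *Apoe* took the largest part of these reads, at 3.68% to 4.21% of reads in WT and 2.97% to 3.53% in *Sirt7* KO mice, and for it too the genotypes were apart in the share and overlapped in CPM. Without *Apoe* the difference was -0.56 percentage points, and as a share of TPM, the scale that divides reads by the effective length of a transcript, it was -1.99. Scaling by total counts moved the median of all genes to -0.11 and that of the 10 genes to -0.33, so about the same distance.

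Levels were compared between genes per length, as TPM summed over isoforms. *Apoa2* was highest on this scale, with 47600 ± 6899 TPM in WT and 36070 ± 782 TPM in *Sirt7* KO mice (SD, n = 3), followed by *Apoe* with 37330 ± 2432 and 32870 ± 6319 TPM. In WT mice *Apoa2* was above *Apoe* in 3 of 3 livers, and in *Sirt7* KO mice in 1 of 3. *Apoc1* (20990 ± 4321 TPM in WT) and *Apoa1* (12860 ± 732 TPM in WT) came next. These had separate ranges in WT mice, whereas in *Sirt7* KO mice *Apoa1* (16400 ± 1660 TPM) and *Apoc1* (15990 ± 313 TPM) overlapped, and *Apoa1* was the higher in 2 of 3 livers. *Apoc3*, with 7975 ± 697 TPM in WT mice, was apart from both its neighbours in either genotype.

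The other 5 genes were lower. *Apoh* (2034 ± 188 TPM) and *Apoa5* (1547 ± 366 TPM) had overlapping ranges in WT mice, while in *Sirt7* KO mice *Apoh* was at 1653 ± 122 TPM and *Apoa5* at 709 ± 41.8 TPM, apart in all livers. *Apoc2* (616 ± 60.1 TPM), *Apob* (298 ± 8.94 TPM) and *Apoa4* (167 ± 64.5 TPM in WT mice) followed in that order in every liver. By reads, without regard to length, *Apoe* was the first of all genes in each of the 6 livers and *Apob*, whose main isoform is 13934 bases long, ranked between 63 and 79. By TPM, *Apoe* ranked between 1 and 7 and *Apob* between 357 and 524. The effective length of short transcripts, which is 250 bases below their length, raises their TPM. With reads per full length scaled to the same total, *Apoe* was above *Apoa2* in WT mice, at 47960 against 40130 on average.

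**Figure D3:**
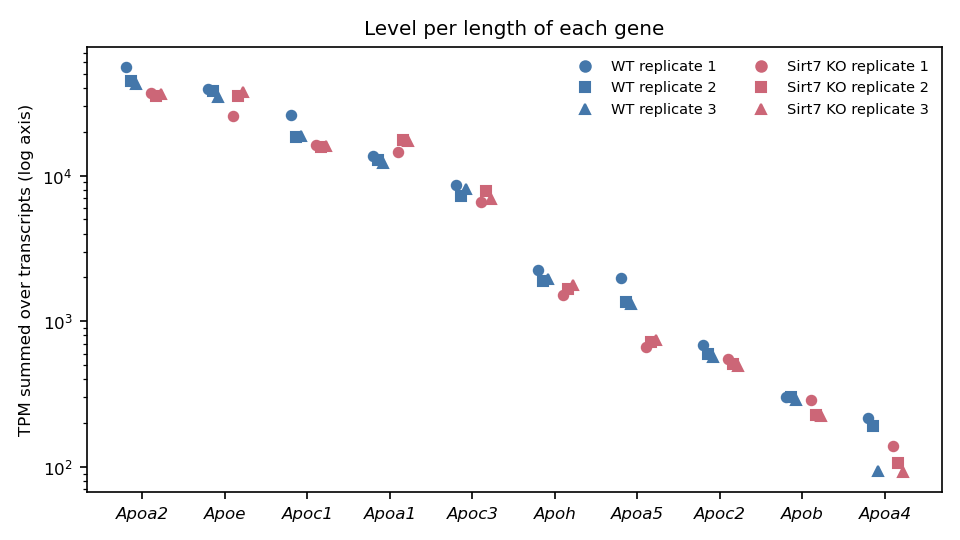
Level per length of the 10 genes, as TPM summed over isoforms (y axis, log scale), in order of the WT mean (x axis). Each point is 1 liver, blue for WT and red for *Sirt7* KO mice. *Apoa2* and *Apoe* are at the top, and *Apoa5* is the gene whose red points lie furthest below the blue ones.

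The share of reads that Salmon gave to the longest isoform with at least 5% of the reads varied between mice, and the genotypes overlapped in all 6 genes with such a choice. For 5 of these 6 it was highest in *Sirt7* KO replicate 1. *Apoe-206*, of 1408 bases against 1104 for the leading *Apoe-209*, took 16.0%, 10.3% and 18.0% of *Apoe* reads in WT and 27.1%, 8.61% and 8.38% in *Sirt7* KO mice. *Apoa2-204* took 52.4%, 46.4% and 57.6% of *Apoa2* reads in WT and 66.0%, 48.4% and 47.5% in *Sirt7* KO mice. In both genes *Sirt7* KO replicate 1 was the highest and its 2 group mates were in or below the range of the WT mice. The same order held for *Apoc1-202* (20.0% in *Sirt7* KO replicate 1 against 7.07% to 14.4%), *Apoc3-203* (19.8% against 5.22% to 13.2%) and *Apoa5-202* (28.0% against 10.9% to 24.1%). *Apob* was the exception: its full-length *Apob-202* took the lowest share in this mouse, 78.5% against 79.9% to 89.2%, the rest being mostly *Apob-203*, a model of the last part of the gene. Length offsets in edgeR allow for the lengths of the isoforms in each liver. With them the log2 fold change went from -1.15 to -1.06 for *Apoa5* and from -0.12 to -0.21 for *Apob*, and each of the 10 genes kept its sign. Beyond this, the part of the isoform shares in the levels of the genes was not tested.

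**Figure D4:**
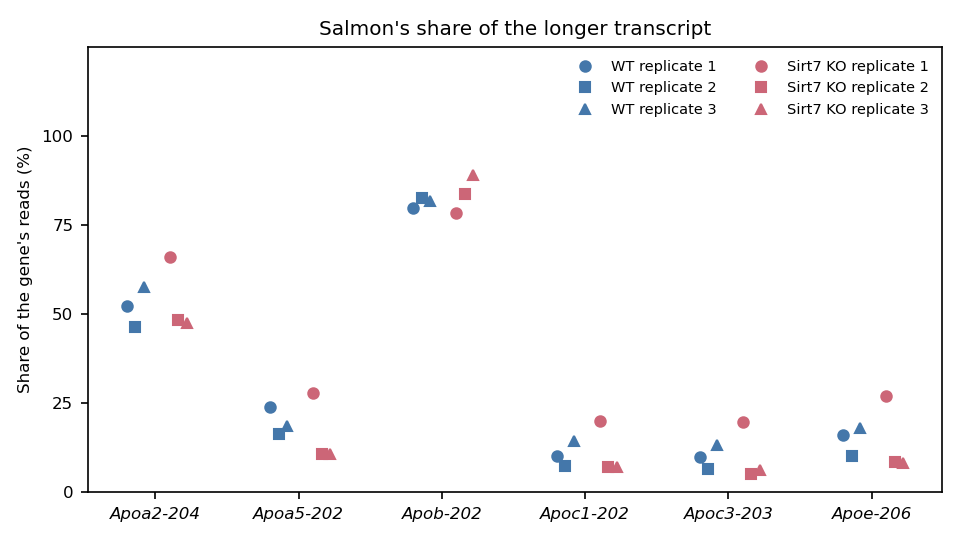
Share of a gene's reads that Salmon assigned to its longest isoform with at least 5% of reads (y axis, percent), for the 6 genes with at least 2 such isoforms (x axis). Each point is 1 liver. The red circle, *Sirt7* KO replicate 1, is the highest in 5 genes and the lowest in *Apob-202*.

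Of 11 other proteins carried on lipoproteins 10 were tested, and 8 of these had a log2 fold change above 0. EdgeR called 0, and 3 had an unadjusted p under 0.05 (11.3% of all genes), all higher in *Sirt7* KO mice, a count that was 1 to 5 with a mouse left out. The genotypes did not overlap for 5 of the 10, against 16.8% of all genes. Of these 5, 4 were higher in *Sirt7* KO mice (8.74% of all genes) and 1 was lower (8.09% of all genes). The list median was a log2 fold change of 0.35. DESeq2 with length offsets called 1, *Saa4*, against 1.87% of all genes. *Saa4*, the constitutive serum amyloid A of HDL, was at 188, 131 and 159 CPM in WT and 239, 275 and 348 CPM in *Sirt7* KO mice (log2 fold change 0.85, SE 0.19, edgeR adjusted p = 0.17). *Apom*, the carrier of sphingosine-1-phosphate on HDL, was 41.7% higher (log2 fold change 0.50, edgeR adjusted p = 0.34) and *Apof*, an inhibitor of lipid transfer, 32.0% higher (0.40, edgeR adjusted p = 0.40). *Apoc4*, the neighbour of *Apoc2*, was lower (log2 fold change -0.34, edgeR adjusted p = 0.46), as were 9 of the 10 apolipoproteins, within and outside the chromosome 7 cluster. *Apod*, with at most 2 reads per liver, was not tested.

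The machinery that loads apoB with lipid and exports VLDL had a median near 0. Of 16 genes tested, both edgeR and DESeq2 with length offsets called 0. At an unadjusted p under 0.05 there was 1, against 11.3% of all genes. This was *P4hb*, a subunit of the microsomal triglyceride transfer protein complex (log2 fold change 0.46, edgeR adjusted p = 0.36). The list median was -0.044. *Mttp*, the large subunit of that complex, had a log2 fold change of -0.21 (SE 0.15, edgeR adjusted p = 0.64). *Apobec1*, which edits *Apob* mRNA, was at 8.39 ± 0.51 CPM in WT and 7.81 ± 0.64 CPM in *Sirt7* KO mice (SD, n = 3, log2 fold change -0.10, edgeR adjusted p = 0.90). Of the 12 lipases, their regulators and HDL remodelling genes, both tools called 0, and the list median was 0.027. *Lmf1*, a chaperone of lipases, was higher (0.43, edgeR adjusted p = 0.37) and *Lipg*, endothelial lipase, was lower (-1.21, edgeR adjusted p = 0.38). Each had an unadjusted p under 0.05, and for each the genotypes overlapped. *Lipg*, at 2.01 to 4.65 CPM on average, was at 1.95, 4.90 and 7.10 CPM in WT and 2.29, 1.91 and 1.83 CPM in *Sirt7* KO mice. *Lcat* was at 702, 659.8 and 669.6 CPM in WT and 587, 538 and 569 CPM in *Sirt7* KO mice, which did not overlap (-0.26, edgeR adjusted p = 0.53). *Abca1*, which lipidates apoA-I, was at 0.32 (edgeR adjusted p = 0.65). *Lpl*, the lipase itself, was at -0.30 (edgeR adjusted p = 0.82), a sign set by WT replicate 1, without which it was 0.31.

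Among 10 tested receptors and their regulators, edgeR called 0, and 3 had an unadjusted p under 0.05, against 11.3% of all genes. The list median was 0.25. DESeq2 with length offsets called 2, among them *Lsr*, both higher in *Sirt7* KO mice, against 1.87% of all genes. *Lsr*, a receptor for remnants, was at 110.7, 108.8 and 122.9 CPM in WT and 139.3, 262 and 209 CPM in *Sirt7* KO mice (log2 fold change 0.83, SE 0.22, edgeR adjusted p = 0.21). *Vldlr*, at 3.21 ± 2.58 CPM in WT and 0.84 ± 0.41 CPM in *Sirt7* KO mice (SD, n = 3), was lower (log2 fold change -1.91, edgeR adjusted p = 0.33). Much of this rests on WT replicate 1, at 6.18 CPM against 1.91 and 1.55 CPM in the other WT mice, without which it was -1.03 (edgeR adjusted p = 0.72). *Lrp1*, a receptor of apoE-rich remnants (0.28, edgeR adjusted p = 0.55), and the HDL receptor *Scarb1* (0.33, edgeR adjusted p = 0.58) did not pass the test. *Lrp8* was not tested, with at most 3 reads per liver.

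Of 28 transcription factors known to act on apolipoprotein genes, both edgeR and DESeq2 with length offsets called 0. At an unadjusted p under 0.05 there were 10, against 11.3% of all genes. Of these, 7 had a lower and 3 a higher level in *Sirt7* KO mice (4.78% and 6.54% of all genes). The list median was -0.12. With a mouse left out the count at an unadjusted p under 0.05 was 4 to 15. *Nr0b2*, or SHP, a repressor of nuclear receptors, was higher (log2 fold change 0.72, SE 0.22, edgeR adjusted p = 0.25). *Nr5a2*, or LRH-1, was lower (-0.78, edgeR adjusted p = 0.26), as were *Rxra*, the common partner of nuclear receptors (-0.40, edgeR adjusted p = 0.28), *Usf2*, an E-box factor (-0.76, edgeR adjusted p = 0.29), and *Onecut1* (-0.81, edgeR adjusted p = 0.35). *Rxra* was at 129.3, 128.7 and 127.3 CPM in WT and 100.2, 93.5 and 99.3 CPM in *Sirt7* KO mice, a narrow spread within each genotype.

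Another 5 factors were named whatever their p, of which *Ppara* and *Foxo1* were among the 7 lower ones. *Ppara*, the receptor that senses fatty acids in fasting, had a log2 fold change of -0.57 (SE 0.23, edgeR adjusted p = 0.38), with the genotypes overlapping. *Hnf4a*, which acts on many apolipoprotein genes, was at -0.44 (SE 0.20, edgeR adjusted p = 0.46). *Creb3l3*, or CREBH, which drives *Apoa4*, *Apoa5* and *Apoc2* in fasting, was at -0.22 (edgeR adjusted p = 0.75), and at -0.44 without *Sirt7* KO replicate 1 (edgeR adjusted p = 0.26). *Foxo1* was at -0.40 (edgeR adjusted p = 0.42), and *Nr1h3*, or LXR-alpha, at 0.078 (edgeR adjusted p = 0.88), with the sign turned to -0.031 by total-count scaling.

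A pair of target lists had larger medians than the apolipoproteins. Both lists were chosen with earlier results of these data known, so their counts are a description. Among 15 target genes of PPAR-alpha and CREBH in fasting, both tools called 0. At an unadjusted p under 0.05 there were 7, all lower in *Sirt7* KO mice, against 4.78% of all genes. The list median was -0.81. *Cyp4a14*, a fatty acid omega-hydroxylase, was at 2751, 3182 and 2049 CPM in WT and 884, 268 and 82.8 CPM in *Sirt7* KO mice (log2 fold change -2.69, edgeR adjusted p = 0.20). *Cyp4a10* (-1.81), *Acot1* (-1.94) and *Acadm* (-0.61) were lower as well (edgeR adjusted p = 0.20 to 0.27). These genes were spread among the *Sirt7* KO mice, and *Acot1*, an acyl-CoA thioesterase, was at 101.0 CPM in *Sirt7* KO replicate 1, against 106.3 CPM in WT replicate 1 and 29.1 and 19.7 CPM in the other *Sirt7* KO mice.

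Of 11 SREBP-2 targets of sterol synthesis, edgeR called 0. DESeq2 with length offsets called 5 (*Cyp51*, *Hmgcs1*, *Idi1*, *Insig1* and *Mvd*), against 1.87% of all genes. At an unadjusted p under 0.05 there were 10, all higher in *Sirt7* KO mice, against 6.54% of all genes. The list median was 1.66. *Mvd* (2.06), *Idi1* (1.78), *Insig1* (1.15), *Fdps* (2.55) and *Sqle* (2.49) led by p-value (edgeR adjusted p = 0.14 to 0.19). *Sirt7* KO replicate 1 was again the nearest to WT: *Sqle* was at 5.84, 21.8 and 8.58 CPM in WT and 25.4, 124.8 and 52.6 CPM in *Sirt7* KO mice. With a mouse left out, 4 to 13 of the fasting targets and 9 to 11 of the sterol targets had an unadjusted p under 0.05.

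**Figure D5:**
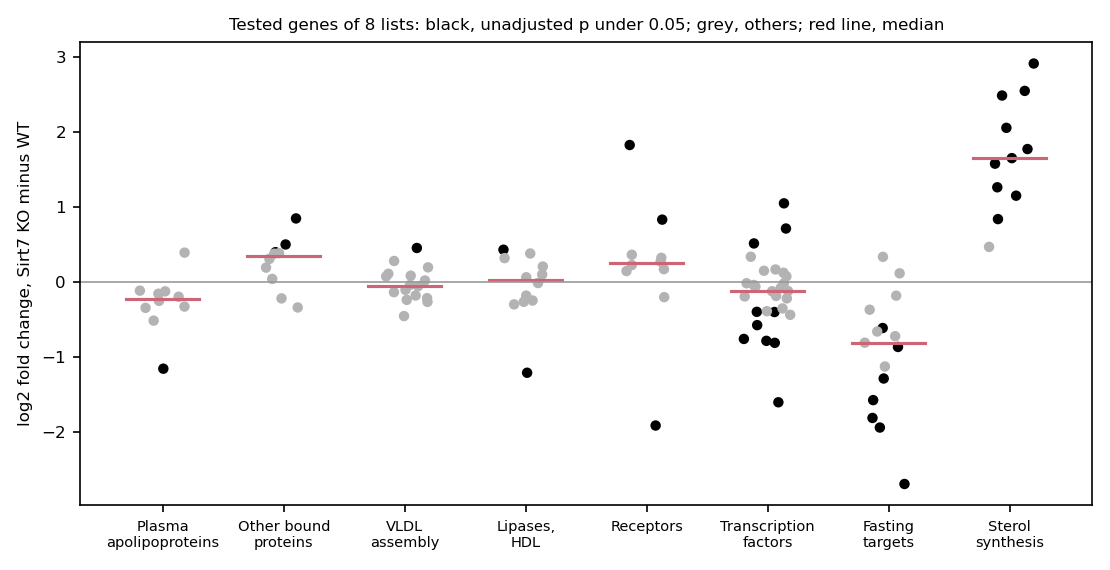
Log2 fold change, *Sirt7* KO minus WT (y axis), of each tested gene of 8 lists (x axis). Black points had an unadjusted edgeR p under 0.05, grey points did not, and red lines are list medians. The 10 apolipoproteins lie mostly just below 0 (median -0.22), between the fasting targets (-0.81) and the sterol synthesis genes (1.66).

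None of the tested markers of Kupffer, stellate, endothelial, cholangiocyte and lymphocyte cells had an unadjusted p under 0.05. For 1 of them, the cholangiocyte marker *Krt19*, the genotypes did not overlap, against 16.8% of all genes. It was at 0.42, 1.09 and 0.59 CPM in WT and 1.10, 1.59 and 1.54 CPM in *Sirt7* KO mice. The erythroid gene *Alas2*, which is 1 of 5 markers, was higher in *Sirt7* KO mice (log2 fold change 1.26, edgeR adjusted p = 0.17), and the summed erythroid markers were 374 to 547 CPM in WT and 446 to 915 CPM in *Sirt7* KO mice. Their part in the values of the apolipoproteins was not tested.

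The genes whose level followed the pattern of an apolipoprotein most closely were sought among 2163 genes with a mean of at least 50 CPM, by Pearson's r of log2 CPM over the 6 livers. These r are the highest of many and describe the same 6 libraries, in which genotype and the place of single mice are shared. For *Apoe*, the nearest were *Prpsap1* (r = 0.98), *Akr1c19* (0.98) and *Ctsh* (0.97). All 3 had their lowest value in *Sirt7* KO replicate 1, as *Apoe* did. For *Apoa4*, they were *Fkbp1a* (0.97), *Tmed4* (0.96) and *Nedd8* (0.96), and for *Apoa5*, *Mpp6* (0.98), *Rnasek* (0.98) and *Ugt1a1* (0.97). *Ugt1a1*, the bilirubin-conjugating enzyme, was at 808, 744 and 781 CPM in WT and 679.7, 648 and 672 CPM in *Sirt7* KO mice, so all *Sirt7* KO mice were lower, as for *Apoa5*, by a smaller difference.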

How the data were processed

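Liver RNA of 3 WT and 3 *Sirt7* KO mice was reverse transcribed with a SMART-seq HT kit and made into libraries that do not mark strand. Reads were trimmed by the authors (Trim Galore 0.6.5), who quantified transcripts of GRCm38 with Salmon 1.2.1 (versions from the submitters' processing notes). For each mouse they deposited estimated counts per transcript, not normalized, with TPM scaled to effective length. Lengths and effective lengths, deposited beside them as another quantity, were identical in all livers. Replicates were not pooled.

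Estimated counts were summed over the transcripts of each GENCODE M21 gene and rounded. Of 140992 transcripts, 1201 had no gene and were left out (0.303% to 0.492% of reads), and 619 matched another version. Genotypes were compared with edgeR 4.0.16 (quasi-likelihood test, TMM, filterByExpr with a minimum count of 10, Benjamini-Hochberg adjustment over 12524 genes, R 4.3.3). The share of reads taken by the 10 genes is given without a test. The code was tested on simulated data. Words of 31 bases shared between genes and motifs were found with Python 3.11.15. Promoters are from RefSeq. Depth covers counting error only.

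All 10 apolipoproteins were named. From each other list, at most 5 genes with an unadjusted p under 0.05 were named, smallest p first, and 13 genes whatever their p. A few genes that this rule names are not reported here. *Apoc4*, and the likeness lists of 3 genes each for *Apoe*, *Apoa4* and *Apoa5*, add to these. Members and lists were chosen with earlier results of these data known. The alternatives were RLE, upper quartile and total-count scaling, scaling without the 10 genes, no filter or one on the mean count (50 or more), length offsets, DESeq2 1.42.0, limma 3.58.1 on log2(TPM + 0.5), a replicate block and leaving out each mouse. The leading isoform alone, the addition of overlapping genes, reads per full length and the *Apoa1* to *Apoa5* ratio were added after seeing the data. The mice were separate animals, and the chi-square between mice of 1 genotype was at least 16.9 per gene, so each counted as 1 sample. Protein sequences were not used here.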

Additional observations from a re-analysis of the deposited data

How the results depend on the processing

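Each of the 10 apolipoprotein genes kept its sign under all alternatives. The number of genes called among all, 1, was 2 with total-count scaling, 2 with length offsets in edgeR, 633 with no filter on low counts, 258 with DESeq2 without and 242 with length offsets, and 0 to 252 when each mouse was left out, 252 being without *Sirt7* KO replicate 1. The number at an unadjusted p under 0.05, 1418, was 2362 with no filter and 994 to 2208 with a mouse left out. Of the 10 genes, 1 in place of 0 was called with no filter and with DESeq2 with and without length offsets, in each case *Apoa5*, and 0 to 1 with a mouse left out. The 10 genes at an unadjusted p under 0.05 numbered 4 with total-count scaling, 2 with no filter, 2 with length offsets in edgeR, 3 and 2 with DESeq2 without and with length offsets, and 1 to 5 with a mouse left out, against 1. Their median log2 fold change was -0.33 with total-count scaling and -0.25 to -0.20 with a mouse left out. The difference in combined share of reads was -1.53 to -0.78 percentage points with a mouse left out, and that in the log2 ratio of *Apoa1* to *Apoa5* 1.38 to 1.67. *Nr1h3* turned to -0.031 with total-count scaling, and *Lpl* was between -0.60 and 0.31 with a mouse left out. *Sirt7*, at -0.41, turned to 0.80 with length offsets in edgeR, 0.81 with them in DESeq2 and 0.71 with limma on TPM. Leaving out a mouse or a filter changes the number of samples or genes by construction. For the other settings the cause was not tested.

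With the replicate block, 41 genes were called (31 higher, 10 lower), 1 of the 10 apolipoproteins was called, *Apoa5*, and 3 had an unadjusted p under 0.05 (*Apoa1*, *Apoa4* and *Apoa5*). Deviations of mice with the same number correlated at 0.065, 0.073 and -0.047, and those of mice with different numbers at -0.098 to 0.048. The values 0.065 and 0.073 were the highest of all. Every value was small, and the numbers were not taken to pair the mice. The biological coefficient of variation over all genes was 26.4%, which limits how small a difference 3 mice per genotype can show.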
